A study of Mus musculus with 14 samples.

Results

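The genes described here are 34 genes of the contractile apparatus of vascular smooth muscle and of mural cells, the smooth muscle cells and pericytes that wrap the vessel wall. They were chosen by name and read from every probe set whose only gene symbol in the platform annotation was one of them. All 34 were measured, out of 22180 genes with such a probe set. Smtn and Rgs5 were each the mean of 2 probe sets and every other gene was read by 1.

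The mice of interest were male ApoE/LTbR-double deficient animals, which lack apolipoprotein E and the lymphotoxin beta receptor, and their ApoE-deficient littermates served as controls, so that all animals carried the ApoE deficiency and the samples titled WT were not wild type at that gene. All received a Western type diet between 8 and 12 weeks of age, for 4 weeks in all, and were 12 weeks old at sampling. RNA came from whole aorta with its perivascular fat (4 double-deficient and 4 ApoE-deficient samples) and from blood cells selected on magnetic beads for CD115, the receptor for colony-stimulating factor 1 carried by monocytes (3 and 3 samples). Replicates 3 and 4 of the ApoE-deficient CD115+ cells were each made from 2 pooled samples. The labels give the deficiencies as genotypes and name no promoter or Cre line, so loss of the receptor is not assigned here to one cell type.

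Smooth muscle cells contract when calcium and calmodulin switch on myosin light chain kinase, which lets smooth muscle myosin pull on alpha and gamma actin. Relaxation follows when myosin phosphatase takes the phosphate off again, and inhibitors of that phosphatase prolong contraction. Serum response factor (Srf) and its partner myocardin (Myocd) switch on most of the contractile genes through a DNA element called the CArG box. In atherosclerotic arteries smooth muscle cells can lose these proteins as they change state, and the genes are therefore widely used as markers of the contractile state.

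Each value below is a log2 signal after the gene's own median, over the 8 aorta or the 6 CD115+ arrays, has been taken off, which is how the values were deposited. Such values order the arrays for 1 gene. They carry no level, so they cannot rank genes, set the tissues against each other or show whether smooth muscle genes were detected in either tissue. Differences are double-deficient minus ApoE-deficient with the standard error (SE) of the limma fit. A gene was counted as changed where the p adjusted over all 22180 genes (Benjamini-Hochberg) was under 0.05. The targeted gene was used to check the labels. Ltbr was lower in double-deficient aorta in every array, at -0.98, -1.10, -1.29 and -0.49 against 0.63, 0.49, 0.70 and 0.89 in ApoE-deficient aorta, a difference of -1.64 ± 0.17 (SE, limma adjusted p = 0.0679). In CD115+ cells it was at -0.07, -0.62 and -0.44 in double-deficient samples, against 0.55, 0.07 and 0.40 in ApoE-deficient samples, a difference of -0.72 ± 0.18 (SE, limma adjusted p = 0.976). The groups did not overlap in either tissue, where 2.11% of all genes were lower without overlap in aorta and 5.23% in CD115+ cells. In CD115+ cells double-deficient replicate 1 and ApoE-deficient replicate 3 lay close to each other, so the check is weaker there.

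In aorta, 27 of the 34 genes had a higher mean in double-deficient mice, and the median difference over the 34 was 0.26, where the median over all genes was 0.01 and 52.8% of all genes were higher. None of the 34 passed the test in limma, in a comparison that called 1 of 22180 genes (0.00451%). At an unadjusted p under 0.05 there were 6 genes higher (Arhgef12, Ppp1r12b, Actg2, Mylk, Vcl and Itga8), against 3.91% of all genes, and 1 lower (Cnn2), against 3.81%. The 4 double-deficient aortas lay above all 4 ApoE-deficient aortas for 4 of the 34 genes, against 2.19% of all genes, and below them for 0, against 2.11%.

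**Figure D1:**
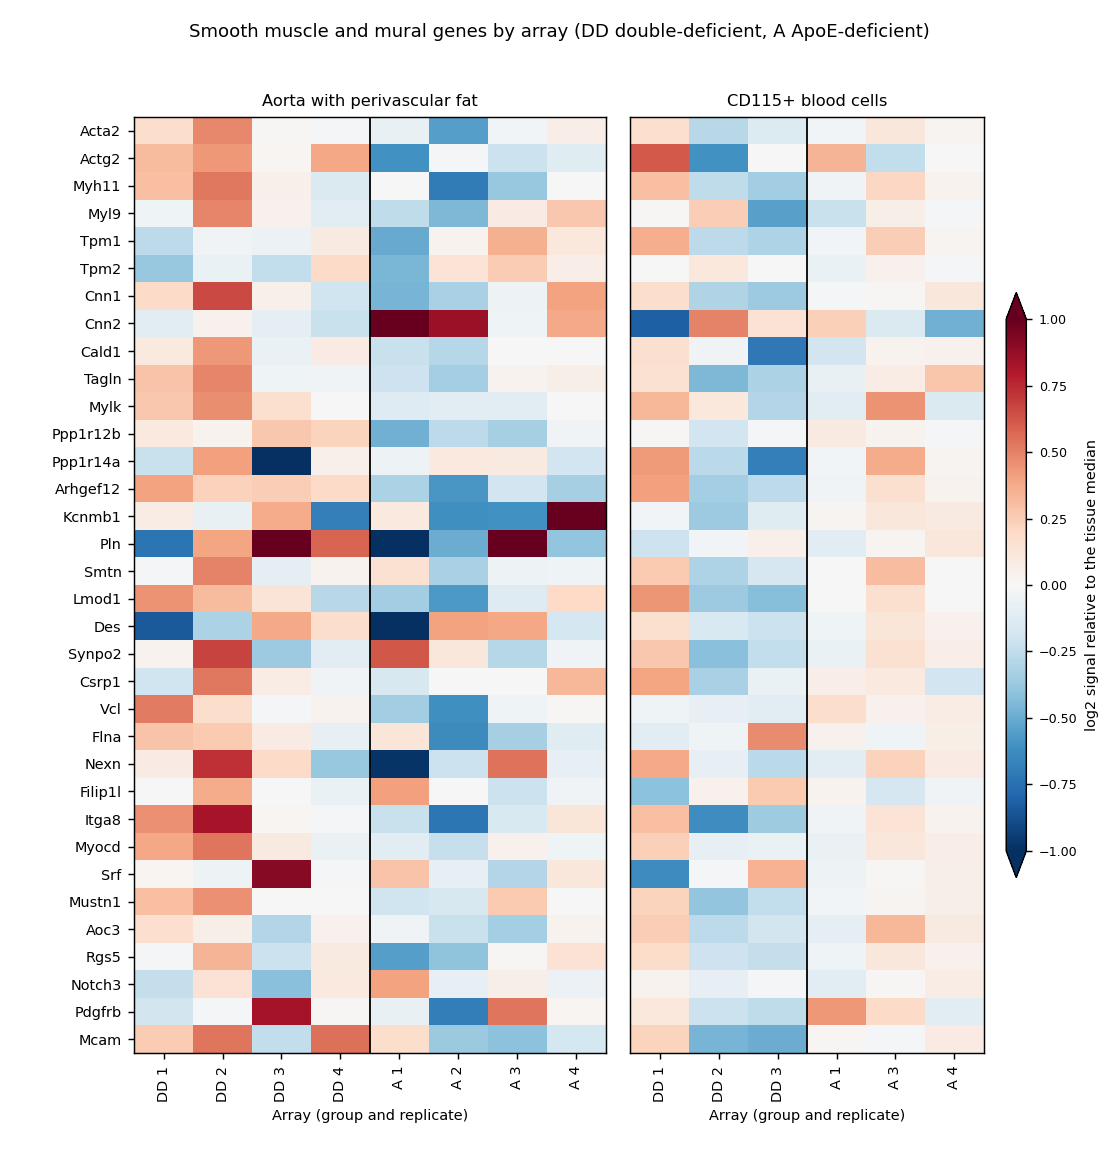
Log2 signal of the 34 genes (rows, ordered by role) on the 14 arrays (columns), relative to the median of the gene within each tissue; DD is double-deficient and A is ApoE-deficient, and colours stop at 1 and -1. Double-deficient aorta 2 is above the median for 28 genes and ApoE-deficient aorta 2 below it for 27, while double-deficient CD115+ replicates 2 and 3 are below it for 29 and 28 genes.

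The pattern was uneven between animals. Of the 34 genes, 22, 28, 19 and 18 were above the median in double-deficient aortas 1 to 4, and 10, 7, 14 and 17 in ApoE-deficient aortas 1 to 4, while the share of all genes above it ran between 42.9% and 54.1% over the 14 arrays. In these counts replicates 1 and 2 stood further apart between the genotypes than replicates 3 and 4. The numbers name the samples and pair none of them. Replicate 4 of both genotypes stood near the median, with 18 and 17 genes above it. The median difference of the 34 genes was 0.16 when double-deficient replicate 2 was left out and 0.20 when ApoE-deficient replicate 2 was, and reached 0.33 on leaving out double-deficient replicate 3. Genes at an unadjusted p under 0.05 numbered 7 of the 34 with all arrays (7.72% of all genes), and 4 without double-deficient replicate 1 (7.85%) or without ApoE-deficient replicate 2 (6.34%). They numbered 10 without double-deficient replicate 3 (7.56%) or 4 (6.53%) and 9 without ApoE-deficient replicate 4 (7.78%).

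The genes also varied more among animals of 1 genotype than genes did in general. The median within-group standard deviation (SD) was 0.279 for the 34 genes in aorta, against 0.191 for all genes, and it ran between 0.131 for Arhgef12 and 0.919 for Pln. In whole aorta, fewer smooth muscle cells and less RNA per cell cannot be told apart.

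Actin and myosin come first. Acta2, the alpha actin of vascular smooth muscle, was at 0.17, 0.48, 0.01 and -0.01 in double-deficient aorta and at -0.07, -0.55, -0.03 and 0.07 in ApoE-deficient aorta. Replicate 2 was the highest of the double-deficient and the lowest of the ApoE-deficient values, and the other 6 arrays lay close together. The difference was 0.31 ± 0.16 (SE, limma adjusted p = 0.703). Myh11, the smooth muscle myosin heavy chain, was at 0.30, 0.53, 0.05 and -0.14 in double-deficient aorta, against 0.01, -0.70, -0.38 and -0.01 in ApoE-deficient aorta, a difference of 0.45 ± 0.20 (SE, limma adjusted p = 0.654). The groups overlapped through double-deficient replicate 4. Actg2, the gamma actin of visceral smooth muscle, was at 0.32, 0.43, 0.02 and 0.39 in double-deficient aorta, against -0.61, -0.02, -0.22 and -0.12 in ApoE-deficient aorta. The groups did not overlap, with a difference of 0.53 ± 0.15 (SE, limma adjusted p = 0.466). Myl9, the regulatory myosin light chain, differed by 0.19, and the tropomyosins Tpm1 and Tpm2, which lie along the actin filament, by -0.06 and -0.13. Of these 6 filament genes, 4 had a higher and 2 a lower mean in double-deficient aorta.

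Among the proteins that sit on the thin filament, Tagln (transgelin, SM22 alpha) was at 0.28, 0.48, -0.04 and -0.03 in double-deficient aorta and at -0.20, -0.34, 0.03 and 0.06 in ApoE-deficient aorta. Its difference of 0.29 ± 0.15 (SE, limma adjusted p = 0.702) came from replicates 1 and 2 of each genotype, and replicates 3 and 4 of both lay close together. Cnn1, calponin 1, a smooth muscle protein that slows the myosin motor, was at 0.19, 0.66, 0.05 and -0.20 in double-deficient aorta, against -0.47, -0.33, -0.05 and 0.40 in ApoE-deficient aorta, a difference of 0.29 ± 0.24 (SE, limma adjusted p = 0.840). Here double-deficient replicate 4 was the lowest of its group and ApoE-deficient replicate 4 the highest of its group. Cald1, caldesmon, which blocks the actin and myosin interaction, differed by 0.26.

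Cnn2, calponin 2, which is made in many cell types including leukocytes, had the opposite sign. It was at -0.11, 0.04, -0.10 and -0.23 in double-deficient aorta and at 1.30, 0.86, -0.04 and 0.38 in ApoE-deficient aorta, a difference of -0.72 ± 0.26 (SE, limma adjusted p = 0.570). The mean of the 8 measured B cell markers was -0.45, -0.50, -0.13 and -0.21 in the same double-deficient aortas and 2.30, 2.36, -0.18 and 1.50 in the ApoE-deficient ones. The 3 ApoE-deficient aortas with the high Cnn2 values were the 3 with the high B cell values, and ApoE-deficient replicate 3 was near the median for both. All 8 of the B cell and all 8 of the T cell markers measured had a lower mean in double-deficient aorta (median differences -1.96 and -1.62), of which 7 and 8 were at an unadjusted p under 0.05 (3.81% of all genes were lower at it) and 0 were called by limma, and their part in the Cnn2 values was not tested.

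**Figure D2:**
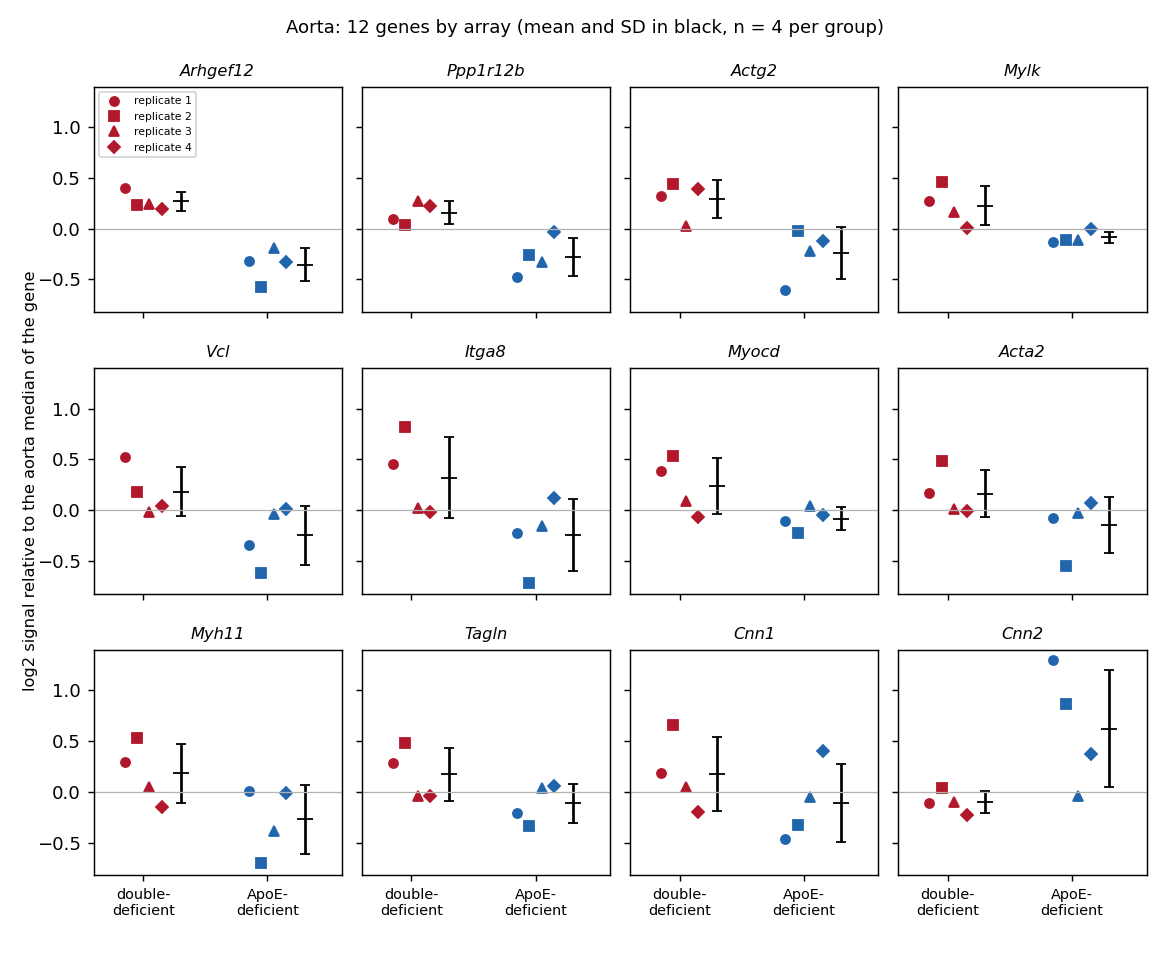
Log2 signal of 12 genes in the 4 double-deficient (left, red) and 4 ApoE-deficient (right, blue) aortas, relative to the aorta median of each gene; symbols give the replicate number and black bars the mean and SD (n = 4). Arhgef12, Ppp1r12b, Actg2 and Mylk show no overlap of the groups, and in Vcl, Itga8, Myocd, Acta2 and Tagln replicates 3 and 4 of both genotypes are closer together than replicates 1 and 2.

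The genes that set the phosphorylation of myosin held 3 of the 4 smallest p values among the 34. Arhgef12, a guanine nucleotide exchange factor that acts downstream of G protein receptors, was at 0.40, 0.23, 0.25 and 0.19 in double-deficient aorta, against -0.32, -0.58, -0.19 and -0.33 in ApoE-deficient aorta. The groups did not overlap, and centring on the median of the 8 aorta arrays then places them on opposite sides of 0. The difference was 0.62 ± 0.09 (SE, 1.54-fold, limma adjusted p = 0.286), rank 12 of 22180 genes by p. Ppp1r12b, a targeting subunit of myosin phosphatase, was at 0.10, 0.04, 0.27 and 0.22 in double-deficient aorta and at -0.48, -0.26, -0.33 and -0.04 in ApoE-deficient aorta, a difference of 0.44 ± 0.11 (SE, 1.35-fold, limma adjusted p = 0.460). Mylk, the myosin light chain kinase, was at 0.27, 0.46, 0.16 and 0.00 in double-deficient aorta and at -0.13, -0.11, -0.11 and -0.00 in ApoE-deficient aorta. The groups of Mylk did not overlap but touched at replicate 4, and the difference was 0.31 ± 0.10 (SE, limma adjusted p = 0.535).

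The other 3 genes of this kind scattered widely. Pln, phospholamban, which restrains the calcium pump of the sarcoplasmic reticulum, was at -0.73, 0.40, 1.15 and 0.58 in double-deficient aorta and at -1.36, -0.49, 1.13 and -0.40 in ApoE-deficient aorta, a difference of 0.63 ± 0.57 (SE). The mean of 9 cardiac muscle markers in the same arrays was -1.11, 0.22, 1.20 and 0.54 in double-deficient aorta, against -0.52, -0.12, 0.03 and -0.11 in ApoE-deficient aorta. Replicate 1 was low and double-deficient replicate 3 high for both measures. ApoE-deficient replicate 3 was high for Pln, at 1.13, but near the median for the cardiac mean, at 0.03. Heart tissue on an aorta sample was not tested as a source of Pln. Ppp1r14a, the phosphatase inhibitor CPI-17, differed by -0.34 and was at -1.63 in double-deficient replicate 3 alone. Without that array its difference was 0.091. Kcnmb1, the beta subunit of the calcium-activated potassium channel of smooth muscle, ranged between -0.69 and 1.11 with a difference of -0.08.

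Among the 10 cytoskeletal and attachment genes, 9 had a higher mean in double-deficient aorta. Vcl, vinculin, which ties actin to adhesion sites, was at 0.52, 0.18, -0.01 and 0.04 in double-deficient aorta, against -0.35, -0.62, -0.04 and 0.01 in ApoE-deficient aorta, a difference of 0.43 ± 0.17 (SE, limma adjusted p = 0.619). Itga8, the integrin alpha 8 chain, was at 0.46, 0.82, 0.02 and -0.02 in double-deficient aorta, against -0.22, -0.72, -0.15 and 0.12 in ApoE-deficient aorta, a difference of 0.56 ± 0.24 (SE, limma adjusted p = 0.632). In both, as in Tagln, double-deficient replicates 1 and 2 were the highest aortas and ApoE-deficient replicates 1 and 2 the lowest. Replicates 3 and 4 of both genotypes lay between them.

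Flna (filamin A, which crosslinks actin), Lmod1 (leiomodin 1, which starts actin filaments) and Nexn (nexilin, an actin-binding protein) differed by 0.38, 0.37 and 0.34, with limma adjusted p between 0.650 and 0.872. Smtn (smoothelin) differed by 0.17, Csrp1 (a LIM-domain protein of the actin cytoskeleton) by 0.05, Filip1l by 0.03, Des (desmin, the muscle intermediate filament) by 0.02 and Synpo2 (an actin-binding protein of the Z-disc) by -0.05. Of these 5, all but Smtn were smaller than their SE. Des was at -0.84, -0.32, 0.38 and 0.18 in double-deficient aorta, against -1.30, 0.40, 0.39 and -0.18 in ApoE-deficient aorta. Its lowest value in each genotype was replicate 1. The mean of 15 skeletal muscle markers, a list whose cells also make desmin, ran between -1.11 and 1.20 in double-deficient aorta, with replicate 4 alone above 0. In ApoE-deficient aorta it was -1.30, 1.60, 1.86 and 0.68. The cardiac muscle mean was -1.11, 0.22, 1.20 and 0.54 in double-deficient aorta, the same order as Des. In ApoE-deficient aorta it was -0.52, -0.12, 0.03 and -0.11. The part of either list in the Des values was not tested.

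Of the regulators, Myocd was at 0.39, 0.54, 0.09 and -0.07 in double-deficient aorta and at -0.10, -0.23, 0.04 and -0.04 in ApoE-deficient aorta, a difference of 0.32 ± 0.14 (SE, limma adjusted p = 0.649). The same 2 double-deficient aortas, 1 and 2, were the highest for Myocd, Tagln, Myh11, Acta2 and Itga8. Srf differed by 0.21, a value set by double-deficient replicate 3 at 0.91, and without that array the difference was -0.023. Mustn1, a small nuclear protein of the musculoskeletal system, differed by 0.21.

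The promoter windows of these genes were searched for the CArG box, the element that serum response factor binds, on both strands. RefSeq windows of build GRCm38.p6, each 250 bases before to 50 bases after a start, were matched by symbol for 27 of the 34 genes, in 31 windows. Promoters of Nexn, Tagln, Aoc3, Actg2, Myocd, Pdgfrb and Myh11 were not analysed here. A box was counted only as an exact match of 10 bases: CC, then only A or T, then GG. Boxes with any other letter were not searched for, so a window without a match is not shown to lack the element. The exact box was found in 5 windows, 16.1% of the 31, and in 535 of 32851 windows of all genes (1.63%). The letters TATAA, searched on both strands, occurred in 32.3% of the 31 windows and 24.9% of all, and the boxes of Cnn2, Vcl and Filip1l and 1 box of Srf hold these letters themselves. The 5 windows are shown because they hold an exact match to the CArG box, with the box in capitals: Srf at chr17:46556113-46556412 on the minus strand, and on the plus strand Vcl at chr14:20929148-20929447, Cnn2 at chr10:79988350-79988649, Filip1l at chr16:57548992-57549291 and Myl9 at chr2:156775214-156775513.
Srf: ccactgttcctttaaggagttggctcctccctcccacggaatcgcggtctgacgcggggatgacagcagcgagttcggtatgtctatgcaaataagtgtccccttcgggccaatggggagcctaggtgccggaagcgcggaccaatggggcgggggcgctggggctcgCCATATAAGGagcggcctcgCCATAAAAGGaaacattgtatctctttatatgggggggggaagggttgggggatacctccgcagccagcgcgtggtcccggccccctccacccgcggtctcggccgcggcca
Vcl: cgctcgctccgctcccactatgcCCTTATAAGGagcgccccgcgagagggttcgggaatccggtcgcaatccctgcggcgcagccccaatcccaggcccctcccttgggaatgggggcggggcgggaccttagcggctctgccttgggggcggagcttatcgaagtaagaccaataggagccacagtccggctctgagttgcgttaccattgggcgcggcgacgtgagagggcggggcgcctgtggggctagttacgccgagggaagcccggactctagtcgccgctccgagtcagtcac
Cnn2: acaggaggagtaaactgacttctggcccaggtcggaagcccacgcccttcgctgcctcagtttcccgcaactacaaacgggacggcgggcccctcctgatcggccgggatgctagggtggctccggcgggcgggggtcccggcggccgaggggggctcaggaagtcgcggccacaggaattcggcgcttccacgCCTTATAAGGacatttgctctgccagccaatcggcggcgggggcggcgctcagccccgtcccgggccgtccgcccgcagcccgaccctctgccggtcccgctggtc
Filip1l: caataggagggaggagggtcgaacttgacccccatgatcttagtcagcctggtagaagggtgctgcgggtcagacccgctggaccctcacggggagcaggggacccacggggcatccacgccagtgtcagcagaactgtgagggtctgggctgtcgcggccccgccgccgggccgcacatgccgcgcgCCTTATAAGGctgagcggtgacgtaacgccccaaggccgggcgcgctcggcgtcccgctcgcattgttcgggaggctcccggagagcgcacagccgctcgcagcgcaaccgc
Myl9: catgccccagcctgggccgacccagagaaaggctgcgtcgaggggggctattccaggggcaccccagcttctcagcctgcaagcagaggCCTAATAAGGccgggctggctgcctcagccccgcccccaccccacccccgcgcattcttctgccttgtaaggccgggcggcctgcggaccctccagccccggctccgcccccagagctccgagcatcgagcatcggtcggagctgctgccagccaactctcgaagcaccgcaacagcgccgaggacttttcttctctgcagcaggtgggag
The boxes start at positions -82 and -62 from the gene start in Srf, at -227 in Vcl, at -56 in Cnn2, at -62 in Filip1l (1 of its 2 windows) and at -161 in Myl9. The genes with an exact match did not move as 1 group in aorta: Vcl differed by 0.43, Srf by 0.21, Myl9 by 0.19, Filip1l by 0.03 and Cnn2 by -0.72. A match of letters in this window is a description and says nothing of binding.

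Of the 4 mural cell genes, 3 had a higher mean in double-deficient aorta. Mcam (CD146, an adhesion protein of pericytes and endothelium) was at 0.25, 0.53, -0.25 and 0.55 in double-deficient aorta, against 0.18, -0.37, -0.41 and -0.18 in ApoE-deficient aorta, a difference of 0.47 ± 0.21 (SE, limma adjusted p = 0.650). Rgs5 (a brake on G protein signalling, typical of pericytes) differed by 0.25, Pdgfrb (the receptor by which PDGF recruits mural cells) by 0.22 and Notch3 (the Notch receptor of arterial smooth muscle) by -0.18. Pdgfrb was at 0.83 in double-deficient replicate 3 and its difference was -0.0074 without that array. Aoc3, the amine oxidase on the surface of smooth muscle and fat cells, differed by 0.14.

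**Figure D3:**
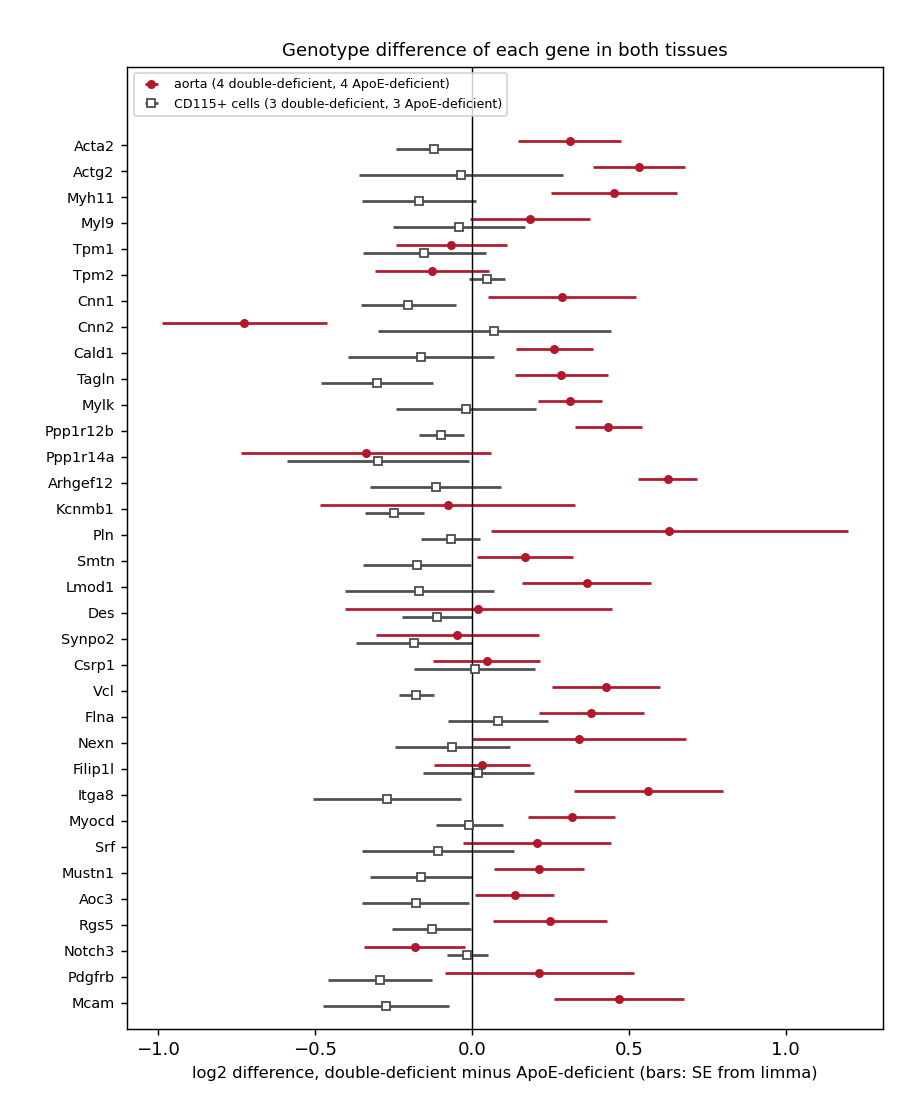
Log2 difference, double-deficient minus ApoE-deficient, of each of the 34 genes in aorta (filled circles, 4 against 4 arrays) and in CD115+ cells (open squares, 3 against 3), with the SE of the limma fit as bars. In aorta 27 of 34 points lie right of 0, in CD115+ cells 29 of 34 lie left of 0, and none passes the adjusted p of 0.05 in either tissue.

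The other pathway lists described here held no called gene in aorta either. Of 20 measured genes of smooth muscle ion channels and nitric oxide relaxation, 15 had a higher mean (median 0.23), where 52.8% of all genes did, and 6 were higher at an unadjusted p under 0.05, where 3.91% of all genes were, among them Pde5a (the cyclic GMP phosphodiesterase that ends nitric oxide relaxation) at 0.57 ± 0.16, Pde3a at 0.44 ± 0.14 and Ryr2 (a calcium release channel) at 0.38 ± 0.11 (SE).

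Of 15 Srf cofactors and partners, 10 had a higher mean (median 0.18), with Fhl2 at -0.59, Tead1 at 0.24 and Abra, a muscle activator of Srf signalling, at -0.68. Of 13 elastic fibre genes 12 were higher (median 0.18, Fbln2 0.25, Fbln1 0.26 and Ltbp3 0.24), and of 17 genes that smooth muscle cells take on when they leave the contractile state 12 were higher (median 0.22), including the protease inhibitor Timp1 at 1.39 ± 0.47, the non-muscle myosin Myh10 at 0.40 ± 0.17 and Tnfrsf11b (osteoprotegerin) at 0.26 ± 0.07 (SE). The lists of the contractile and of the modulated state thus had positive medians of like size, 0.26 and 0.22. Lum, Dcn, Col1a1, Col1a2 and Col3a1 of the modulated list are also among the fibroblast markers used below. In whole aorta that list therefore cannot show the state of smooth muscle cells. Vasoactive receptors (8 of 13 higher, median 0.09, Htr2b 0.34, Avpr1a 0.46, Ednrb 0.32), Notch and PDGF signalling (10 of 14, median 0.13, Pdgfa 0.29, Rbpj 0.31, Hey1 0.35) and TGF beta signalling (12 of 15, median 0.10) were nearer 0. Within the last, Tgfb1 differed by -0.92 ± 0.22 and Eng by 0.39 ± 0.10 (SE), and Ski by -0.35. At an unadjusted p under 0.05 limma had 1 gene higher and 1 lower in the Srf list, 2 and 2 in the TGF beta list, and 3, 2, 1 and 1 higher with 0 lower in the lists of the modulated state, vasoactive receptors, elastic fibres and Notch and PDGF signalling. Over all genes 3.91% were higher and 3.81% lower at that p, so a single gene in a list of this size is near that share.

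Markers of other cells of the vessel were higher in mean too. They numbered 11 of 12 for fibroblasts (median 0.12), 12 of 14 for endothelium (0.16), 8 of 12 for adipocytes (0.13), 6 of 9 for pericytes (0.11), 7 of 8 for Schwann cells and neurons (0.38) and 8 of 12 for macrophages (0.10). At an unadjusted p under 0.05 in limma, 3 Schwann cell and neuron markers, 1 adipocyte marker and 1 pericyte marker were higher. For fibroblasts, endothelium and macrophages 0 were, where 3.91% of all genes were higher at that p. All 9 cardiac muscle markers were higher in mean as well (median 0.28), though their mean ran between -1.11 and 1.20 over the double-deficient aortas. Ryr2, the 1 cardiac marker higher at an unadjusted p under 0.05 in limma, is on the cardiac list and on the ion channel list. Other lists share genes too. Abcc9 and Kcnj8 are on the pericyte and ion channel lists, and Mfap5 is on the fibroblast and elastic fibre lists. Pdgfra is on the fibroblast and the Notch and PDGF lists, and Csf1r on the macrophage and monocyte lists. The fibroblast mean was 0.43, 0.17, -0.34 and 0.01 in double-deficient aorta, against -0.16, -0.14, -0.05 and 0.14 in ApoE-deficient aorta, and the pericyte mean was 0.21, 0.14, -0.13 and 0.17 in double-deficient aorta, against -0.02, -0.38, -0.00 and -0.10 in ApoE-deficient aorta. The mean of the 34 genes was 0.06, 0.32, 0.04 and 0.01 in double-deficient aorta, against -0.17, -0.25, -0.01 and 0.05 in ApoE-deficient aorta. The lymphocyte markers had lower means in double-deficient aorta, as did 15 of 15 skeletal muscle markers (median -1.24). Of these 15, 1 was lower at an unadjusted p under 0.05, where 3.81% of all genes were, and 0 were called by limma. The skeletal muscle mean overlapped widely between the groups. It ran between -1.11 and 1.20 in double-deficient aorta and between -1.30 and 1.86 in ApoE-deficient aorta. Medians were also negative for neutrophil (-0.26), monocyte (-0.23), platelet (-0.14), mesothelial (-0.06) and erythroid (-0.03) markers. Whether the share of RNA from any of these cells bears on the 34 genes was not tested.

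**Figure D4:**
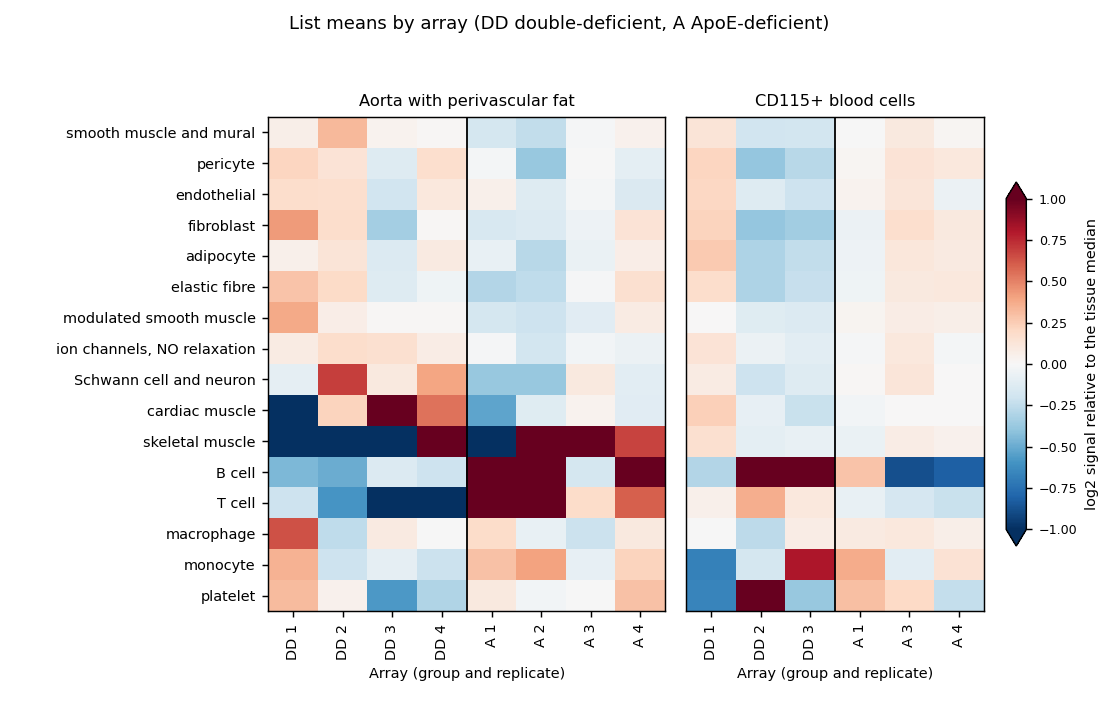
Mean log2 signal of the 34 genes (top row) and of 15 other lists on the 14 arrays, relative to the tissue median; DD is double-deficient and A is ApoE-deficient, and colours stop at 1 and -1. In CD115+ cells the rows of the 34 genes, pericytes, fibroblasts, adipocytes and elastic fibre genes share the same 2 low arrays. These are double-deficient replicates 2 and 3, in which the B cell row is high. The same 2 arrays are also the lowest in the endothelial, Schwann cell and neuron, cardiac muscle and skeletal muscle rows.

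In CD115+ blood cells the sign was turned: 29 of the 34 genes had a lower mean in double-deficient samples, with a median difference of -0.12 against -0.01 over all genes, of which 55.3% were lower. None passed the test, and limma called 0 of 22180 genes (0%) and 974 at an unadjusted p under 0.05 in this comparison. Only Vcl and Kcnmb1 were lower at an unadjusted p under 0.05, where 2.33% of all genes were, and both also had groups that did not overlap, where 5.23% of all genes did.

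Vcl was at -0.04, -0.08 and -0.11 in double-deficient cells and at 0.18, 0.04 and 0.07 in ApoE-deficient cells, a difference of -0.18 ± 0.06 (SE, limma adjusted p = 0.976). Vinculin is not restricted to muscle, and its within-group SD of 0.055 was the smallest of the 34. Kcnmb1 was at -0.02, -0.36 and -0.12 in double-deficient cells, against 0.02, 0.11 and 0.09 in ApoE-deficient cells, a difference of -0.25 ± 0.09 (SE, limma adjusted p = 0.976). The groups of Kcnmb1 did not overlap, and centring on the median of the 6 CD115+ arrays then places them on opposite sides of 0. Pdgfrb was at 0.11, -0.21 and -0.26 in double-deficient cells, against 0.43, 0.19 and -0.11 in ApoE-deficient cells, a difference of -0.29 ± 0.17 (SE). Tagln, at 0.15, -0.45 and -0.32 in double-deficient cells, against -0.08, 0.08 and 0.28 in ApoE-deficient cells, differed by -0.30 ± 0.18 (SE). Mcam, at 0.23, -0.47 and -0.50 in double-deficient cells, against 0.02, -0.02 and 0.08 in ApoE-deficient cells, differed by -0.27 ± 0.20 (SE). In the last 3 genes double-deficient replicates 2 and 3 were the low arrays and replicate 1 was not. Among the defining contractile genes Acta2 differed by -0.12, Myh11 by -0.17, Cnn1 by -0.20, Actg2 by -0.03 and Myocd by -0.01, and the differences of all 34 ran between -0.30 and 0.08.

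The arrays show how that median arose. Of the 34 genes, 26, 5 and 6 were above the median in double-deficient replicates 1, 2 and 3, and 11, 29 and 25 in ApoE-deficient replicates 1, 3 and 4. In these counts double-deficient replicate 1 was nearer to ApoE-deficient replicates 3 and 4 than to its own group. Without it the median difference was -0.29 and 18 of the 34 genes were lower at an unadjusted p under 0.05, against 8.89% of all genes, with a smallest limma adjusted p of 0.0826 and 0 genes called (0%). The median was -0.06 without double-deficient replicate 2 and -0.07 without double-deficient replicate 3. In either case 0 of the 34 genes were under that p, against 3.14% and 4.17% of all genes in either direction. Leaving out ApoE-deficient replicate 1 also gave 0 such genes (3.76% of all genes), and leaving out ApoE-deficient replicate 3 gave 1 (3.21%).

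The means of the fibroblast, adipocyte, pericyte and skeletal muscle markers ranked the 6 arrays in the same order as the mean of the 34 genes did. Those of endothelial cells, Schwann cells and neurons, mesothelial cells and cardiac muscle gave other orders. Double-deficient replicates 2 and 3 were nevertheless the lowest arrays in each of these lists too. They were at -0.13 and -0.21 for endothelium and at -0.20 and -0.13 for Schwann cells and neurons. For mesothelial cells they were at -0.09 and -0.14, and for cardiac muscle at -0.08 and -0.22. The fibroblast mean was 0.22, -0.39 and -0.34 in double-deficient CD115+ cells, against -0.06, 0.17 and 0.10 in ApoE-deficient ones, and the adipocyte mean was 0.26, -0.31 and -0.25 in double-deficient cells, against -0.05, 0.11 and 0.09 in ApoE-deficient cells. The pericyte mean was 0.21, -0.39 and -0.28 in double-deficient cells, against 0.02, 0.14 and 0.11 in ApoE-deficient cells. All 12 fibroblast, all 12 adipocyte and all 9 pericyte markers measured had a lower mean in double-deficient cells. The B cell mean was -0.29, 1.92 and 1.08 in double-deficient cells, against 0.29, -0.88 and -0.82 in ApoE-deficient cells, high in the arrays where the 34 genes were low. The platelet mean stood at 1.70 in double-deficient replicate 2 and between -0.66 and 0.30 in the other 5 arrays. What part cells other than monocytes had in these values was not tested, and centred values do not show whether the smooth muscle genes gave any signal above background in blood cells.

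The difference between the tissues, the aorta difference minus the CD115+ difference in 1 fit of 14 arrays, was positive for 30 of the 34 genes (54.7% of all genes), with a median of 0.36 against 0.02 over all genes. None passed the test in limma, which called 0 of 22180 genes (0%) and 1530 at an unadjusted p under 0.05. At that unadjusted threshold 6 genes were higher, against 3.41% of all genes. The 4 with the smallest p were Ppp1r12b at 0.53 ± 0.14 (limma adjusted p = 0.584), Arhgef12 at 0.74 ± 0.22 (0.591), Vcl at 0.61 ± 0.22 (0.644) and Tagln at 0.59 ± 0.24 (0.687, all SE). For Arhgef12 the CD115+ values were 0.41, -0.34 and -0.26 in double-deficient cells, against -0.04, 0.16 and 0.04 in ApoE-deficient cells, so that its CD115+ groups overlapped through double-deficient replicate 1. Without that array, Arhgef12 was called in the difference between tissues (limma adjusted p = 0.0299), 1 of 58 genes then called (0.261%), and at an unadjusted p under 0.05 there were 14 of the 34 genes higher, against 5.46% of all genes, and 1 lower, against 5.67%. The share of all genes under that p, in either direction, was then 11.1%, where it was 6.9% with all arrays. The genes of the 34 under that p numbered 3, all higher, without any 1 of double-deficient aorta 2, ApoE-deficient aorta 2, double-deficient CD115+ replicates 2 and 3 and ApoE-deficient CD115+ replicates 3 and 4, with between 4.23% and 6.69% of all genes under it. Ppp1r12b was at 0.01, -0.19 and -0.01 in double-deficient cells, against 0.09, 0.03 and -0.02 in ApoE-deficient CD115+ cells, close to level beside its values in aorta.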

How the data were processed

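RNA of 8 aortas with perivascular fat and 6 preparations of CD115+ blood cells (1 ng each) was amplified and given a biotin label, as the labels' protocols say. The titles and the genotype labels gave the groups and the replicate numbers.

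The authors deposited log values, read here as log2, for 33793 probe sets on 14 arrays. How the arrays were normalized, how probes were summarised and which log base was used is not given in the sources used here. The median over the 8 aorta arrays and over the 6 CD115+ arrays was 0 within 1e-06 for all 33793 probe sets, so scale is known only up to the log base, centring is per probe set and tissue, and the direction is taken to be that of signal. The Ltbr values run that way. No scan date or batch is given in the labels.

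Probe sets with 1 symbol in the platform annotation (23521) were averaged to 22180 genes. Probe sets with several symbols (1814, 1 of them naming Des) or none listed (8458) were left out. No filter on low values was possible, so all 34 genes entered each fit. Each tissue, and the difference between tissues over all 14 arrays, was fitted with limma 3.58.1 in R 4.3.3 (lmFit, eBayes), with Benjamini-Hochberg adjustment over 22180 genes, after testing on simulated data. The number of arrays limits the precision. Beyond the littermate controls and the pooled CD115+ preparations, the labels state only that samples are separate, so p-values measure the spread between samples. In CD115+ cells that spread mixes single and pooled preparations. A simple exact permutation of 4 against 4 arrays cannot go below p = 0.0286, nor 3 against 3 below 0.1. No pair of arrays was identical.

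The 34 genes and all other lists were chosen with earlier results of these data known. Values on every array are given for 6 defining genes (Acta2, Myh11, Tagln, Cnn1, Myocd, Actg2), for the 8 genes of smallest p in aorta, the 5 in CD115+ cells and the 4 of the tissue difference, and up to 3 genes of smallest aorta p are named per pathway list. The results of 1 other pathway list are not reported here. Values by array for Pln, Mcam and Des in aorta were added after the data were seen, beside single values of other genes. Alternatives were a robust prior, array weights, another choice of probe set, array medians subtracted, quantile normalization, a replicate block, leaving out the pooled preparations and leaving out each array.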

Additional observations from a re-analysis of the deposited data

Results flagged for a closer look

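In groups of 4 aortas, 68 combinations of gene and genotype were examined for a sample far from its group by Dixon's ratio, and 3 stood out, where chance alone marks about 1 in 20. Srf was at 0.91 in double-deficient aorta replicate 3, far above the other 3. Filip1l was at 0.37 in double-deficient aorta replicate 2, above the other 3 near 0. Mylk was at -0.00285 in ApoE-deficient aorta replicate 4, a small step above 3 values near -0.11.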

How the results depend on the processing

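In aorta 0 of the 34 genes were called under every alternative run, and the median difference stayed positive, between 0.16 and 0.33, with the largest change on leaving out double-deficient replicate 2. In CD115+ cells 0 were called under every alternative run, and the median stayed negative, between -0.29 and -0.06. In the difference between tissues, leaving out 1 array gave 0 to 1 called gene, the 1 being Arhgef12 without CD115+ double-deficient replicate 1. Of 476 combinations of gene and setting in aorta, 18 changed sign, in 9 genes, and of 442 in CD115+ cells 48 did, in 15 genes with differences of at most 0.178 in size; in the difference between tissues 31 of 714 did, in 7 genes. Leaving out 1 array moved Tpm1 between -0.23 and 0.054, Ppp1r14a between -0.59 and 0.091, Kcnmb1 between -0.28 and 0.29, Des between -0.35 and 0.25, Synpo2 between -0.25 and 0.13, Csrp1 between -0.10 and 0.15, Filip1l between -0.066 and 0.16, Srf between -0.023 and 0.30 and Pdgfrb between -0.0074 and 0.41. Under quantile normalization Des was -0.011 in aorta, and Actg2 and Myocd were 0.045 and 0.0084 in CD115+ cells. There, leaving out 1 array moved Actg2 between -0.34 and 0.27 and Myocd between -0.11 and 0.049, and Myocd was 0.10 without the pooled preparations. With the replicate number as a block, Actg2 was 0.25 and Myocd 0.062 in CD115+ cells, the smallest adjusted p in aorta was 0.502, and the medians were 0.26 in aorta, -0.07 in CD115+ cells and 0.32 for the difference, with 0 genes of the 34 called. Same-numbered aortas correlated at 0.17, -0.15, -0.14 and 0.06 in their deviations and the CD115+ pairs at -0.47 and -0.29, so the numbers were not used as pairs. The mean-variance trend was not run, since centred values hold no level. Signal over background could not be read, so detection of any gene is unknown. The cause of these changes was not tested.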
